A study of Mus musculus with 8 samples.

Results

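The IFIT family (interferon-induced proteins with tetratricopeptide repeats) was described through 5 genes, Ifit1, Ifit2, Ifit3, Ifit3b and Ifit1bl1, in single colonic lamina propria cells of mice with and without induced deletion of CD98hc. The genes were chosen by name among the 16889 rows of the table of unique molecular identifiers (UMIs, each counting 1 captured mRNA molecule), and the family was proposed with results of the comparison between conditions known. Differences between conditions are therefore given as descriptions: calls from fits over all genes are printed beside the share of all genes called, and nothing is read from them. A row for Ifit1bl2, a further gene of this kind, held 18 UMIs in all and was not a member.

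IFIT proteins are cytoplasmic proteins built from helical repeats. They are among the genes most strongly induced by type I interferon through the transcription factor complex ISGF3, and some are also induced directly by IRF3 after viral RNA is sensed. Ifit1 encodes a protein that binds RNA whose cap lacks 2′-O methylation, as on many viral RNAs, and keeps it from being translated. Ifit2 and Ifit3 encode proteins that form complexes with other IFIT proteins, and IFIT proteins also bind the translation initiation factor eIF3. Ifit3b is a close copy of Ifit3, and Ifit1bl1 and Ifit1bl2 are relatives of Ifit1 whose roles are less well described. In the gut, resident macrophages are replenished by blood monocytes, and both cell types respond to interferon.

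All 8 mice were female littermates of 1 inducible line, CD98hcΔCX3CR1, in which floxed alleles of CD98hc (the heavy chain of an amino acid transporter, gene Slc3a2) were combined with a Cx3cr1CreER-YFP allele, so that Cre was driven by Cx3cr1 and reached cells that express it. The 4 control mice (replicates 1 to 4) received corn oil, and the 4 cKO mice (replicates 5 to 8, labelled Cd98 KO) received tamoxifen, in 100 µl at 20 mg/ml according to the labels, by intraperitoneal injection on 5 consecutive days with the readout on day 7. Corn oil controls carried the same alleles, and since only the cKO mice received tamoxifen, the drug and the deletion cannot be told apart. Cells positive for CD11b and for CCR2 or CD64 were sorted from the colonic lamina propria, and each mouse was loaded in 1 well, aiming at 3000 cells, on 1 day.

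Of 5947 barcodes, 3213 passed the filters, 1863 from control and 1350 from cKO mice, with 83 to 724 cells and 497531 to 3762314 UMIs per mouse. Control replicate 3 and cKO replicate 5 were the small libraries, with 85 and 83 cells. Median depth was 4149 to 5538 UMIs per cell. Among the cells kept, 16 carried a barcode found in more than 1 well, and a doublet caller marked 15 control and 58 cKO cells, 24 of them in cKO replicate 5. Clustering without the family, listed interferon genes and markers gave 9 clusters. Markers named 6 of them as macrophage-like (611 cells), dendritic cell-like (534), monocyte-like (300), low-UMI macrophage-like (255, with a median of 1149 UMIs), lymphoid-like (187) and stromal-like (82). Another 3 clusters had no marker among their leading genes and are called by those genes, Saa3/Ccl24 (572 cells), Cebpb/Dusp2 (359) and Dmkn/Slpi (313). The tissue label of monocytes and macrophages thus covered part of the cells. Names were rebuilt from these data and may differ from those of the study.

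The genes lie in 1 cluster of 99316 bp on mouse chromosome 19 (GRCm38, the assembly that mm10 names), between 34550694 and 34650009. In order along the chromosome, GENCODE vM21 places the protein-coding genes Ifit2 (34550694 to 34576419, plus strand), Ifit3 (34583531 to 34588731, plus strand), Ifit1bl1 (34592891 to 34601956, minus strand), Ifit3b (34607970 to 34613401, plus strand), Ifit1bl2 (34617049 to 34640743, minus strand) and Ifit1 (34640871 to 34650009, plus strand). The promoter sequences of 4 members are shown because they carry the letters TTTCNNTTTC (GAAANNGAAA on the other strand), the core of the interferon-stimulated response element that ISGF3 and other IRF factors bind. Each run below holds the 250 bases before the start of the transcript in RefSeq (GRCm38.p6), 5′ to 3′ on the gene's strand, with every match in capitals.

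Ifit3, chr19:34583279-34583528, plus strand: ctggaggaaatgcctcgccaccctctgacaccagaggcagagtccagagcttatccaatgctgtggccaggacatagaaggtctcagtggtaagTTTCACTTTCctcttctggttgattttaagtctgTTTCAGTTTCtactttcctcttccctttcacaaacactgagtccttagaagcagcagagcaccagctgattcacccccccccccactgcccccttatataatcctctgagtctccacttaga

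Ifit3b, chr19:34607707-34607956, plus strand: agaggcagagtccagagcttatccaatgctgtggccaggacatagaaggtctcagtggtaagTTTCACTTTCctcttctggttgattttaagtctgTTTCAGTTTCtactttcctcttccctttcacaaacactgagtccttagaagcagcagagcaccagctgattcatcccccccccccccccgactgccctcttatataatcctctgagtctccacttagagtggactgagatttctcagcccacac

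Ifit1, chr19:34640639-34640888, plus strand: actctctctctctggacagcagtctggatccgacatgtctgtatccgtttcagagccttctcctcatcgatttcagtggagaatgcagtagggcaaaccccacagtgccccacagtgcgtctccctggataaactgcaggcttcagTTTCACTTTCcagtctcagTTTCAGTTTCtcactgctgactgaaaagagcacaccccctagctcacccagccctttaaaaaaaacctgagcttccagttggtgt

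Ifit1bl1, chr19:34601969-34602218, minus strand: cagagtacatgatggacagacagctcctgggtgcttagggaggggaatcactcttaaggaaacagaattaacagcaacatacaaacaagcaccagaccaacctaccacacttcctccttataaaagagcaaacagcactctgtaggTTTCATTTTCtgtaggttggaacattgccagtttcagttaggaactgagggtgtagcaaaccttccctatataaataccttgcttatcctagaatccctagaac

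All 5 members and Ifit1bl2 had RefSeq promoters, with a pair of annotated starts for Ifit2, Ifit1bl1 and Ifit1bl2. The first letters of the matches lay 156 and 122 bases before the start of Ifit3, 188 and 154 bases before that of Ifit3b, 104 and 85 bases before that of Ifit1 and 104 bases before the first start of Ifit1bl1. Its second start had a match 23 bases upstream. Neither window of Ifit2 held these letters, which says nothing of binding there. Ifit3 and Ifit3b shared a run of 169 identical bases that held both matches. The windows of Ifit1 and Ifit1bl2 faced each other, and the same pair of sites, 34640785 to 34640794 and 34640804 to 34640813, fell in both. Among all RefSeq promoters of this length, 936 of 27025 genes (3.46%) had a match, and among 39 matched interferon-stimulated genes outside the family it was 19 (48.7%). A match is a description of the letters only.

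The family held 2887 UMIs, 628 in control and 2259 in cKO cells. Of these Ifit3 had 1013, Ifit1 678, Ifit3b 624, Ifit2 467 and Ifit1bl1 105. Levels are in CPM, where all UMIs that a mouse had in its cells kept are set to 1000000, and 3′ tags need no correction for gene length. Ifit3, whose protein bridges other IFIT proteins, was at 15.4, 11.6, 42.4 and 24.9 CPM in control replicates 1 to 4 and at 62.3, 78.6, 121 and 156 CPM in cKO replicates 5 to 8. Every cKO mouse was above every control mouse, and cKO replicate 5 was the nearest to the controls. The mean was 23.6 ± 13.7 CPM in control and 104 ± 42.4 CPM in cKO mice (SD, n = 4), a log2 fold change of 2.47 (SE 0.38). Ifit3b followed it with 9.30, 5.50, 37.3 and 12.8 CPM in control and 46.2, 47.8, 68.4 and 105 CPM in cKO mice, again without overlap, at a log2 fold change of 2.57 (SE 0.46). Reads of 58 bases cannot separate these copies everywhere, since 59 of the 443 words of that length in the last 500 bases of Ifit3 (13.3%) also occur in Ifit3b. In the other direction, 0 of the 443 words in the last 500 bases of Ifit3b occur in Ifit3. Their single values are uncertain. UMI counting took reads mapped to a unique gene, so a sum does not bring back reads that match both copies.

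Ifit1, the sensor of incompletely capped RNA, was at 17.8, 11.01, 28.9 and 12.8 CPM in control mice and at 22.1, 46.0, 92.5 and 88.8 CPM in cKO mice. The groups overlapped by 1 mouse on each side, control replicate 3 and cKO replicate 5, at a log2 fold change of 2.17 (SE 0.40). Ifit2 was at 10.6, 9.48, 44.1 and 16.2 CPM in control and at 24.1, 24.8, 56.7 and 56.0 CPM in cKO mice. Control replicate 3 exceeded the lower cKO pair here, and the log2 fold change was 1.52 (SE 0.45). Ifit1bl1 was at 2.66, 0.917, 0 and 1.35 CPM in control and at 10.0, 6.65, 14.5 and 15.7 CPM in cKO mice, without overlap, at a log2 fold change of 3.03 (SE 0.45) that rests on 17 control UMIs. Ifit1bl2 had 3 control and 15 cKO UMIs.

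In the fit over all genes, 4 of 5 members were called higher in cKO mice (edgeR quasi-likelihood test, Benjamini-Hochberg adjusted p of 0.05), where 341 of 11387 genes (2.99%) were, and Ifit2 was not called. CPM did not overlap between groups for Ifit3, Ifit3b and Ifit1bl1, as for 4.00% of genes in the same direction. Since the family was proposed on this contrast, nothing is read from these counts. In bulk sums of a mouse, more cells with a transcript and more transcript per cell cannot be told apart, so detection per cell is given as well. Cell markers also moved with the condition, where 341 of all 11387 genes were called higher and 169 lower. Summed monocyte markers ranged from 1601 to 3274 CPM in control and from 6987 to 10247 CPM in cKO mice, with 6 of 8 called higher. Of 8 dendritic cell markers 6 were called lower (589 to 623 CPM against 140 to 237 CPM), and no marker of either list was at 0. Macrophage markers had 2 called higher and 1 lower of 15. Of those tested, 2 of 4 neutrophil, 1 of 3 plasmacytoid dendritic cell and 1 of 9 lymphoid markers were called higher. The remaining marker lists had no call. The part of these marker shifts in the family's difference over all cells was not tested, but values within clusters follow.

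**Figure D1:**
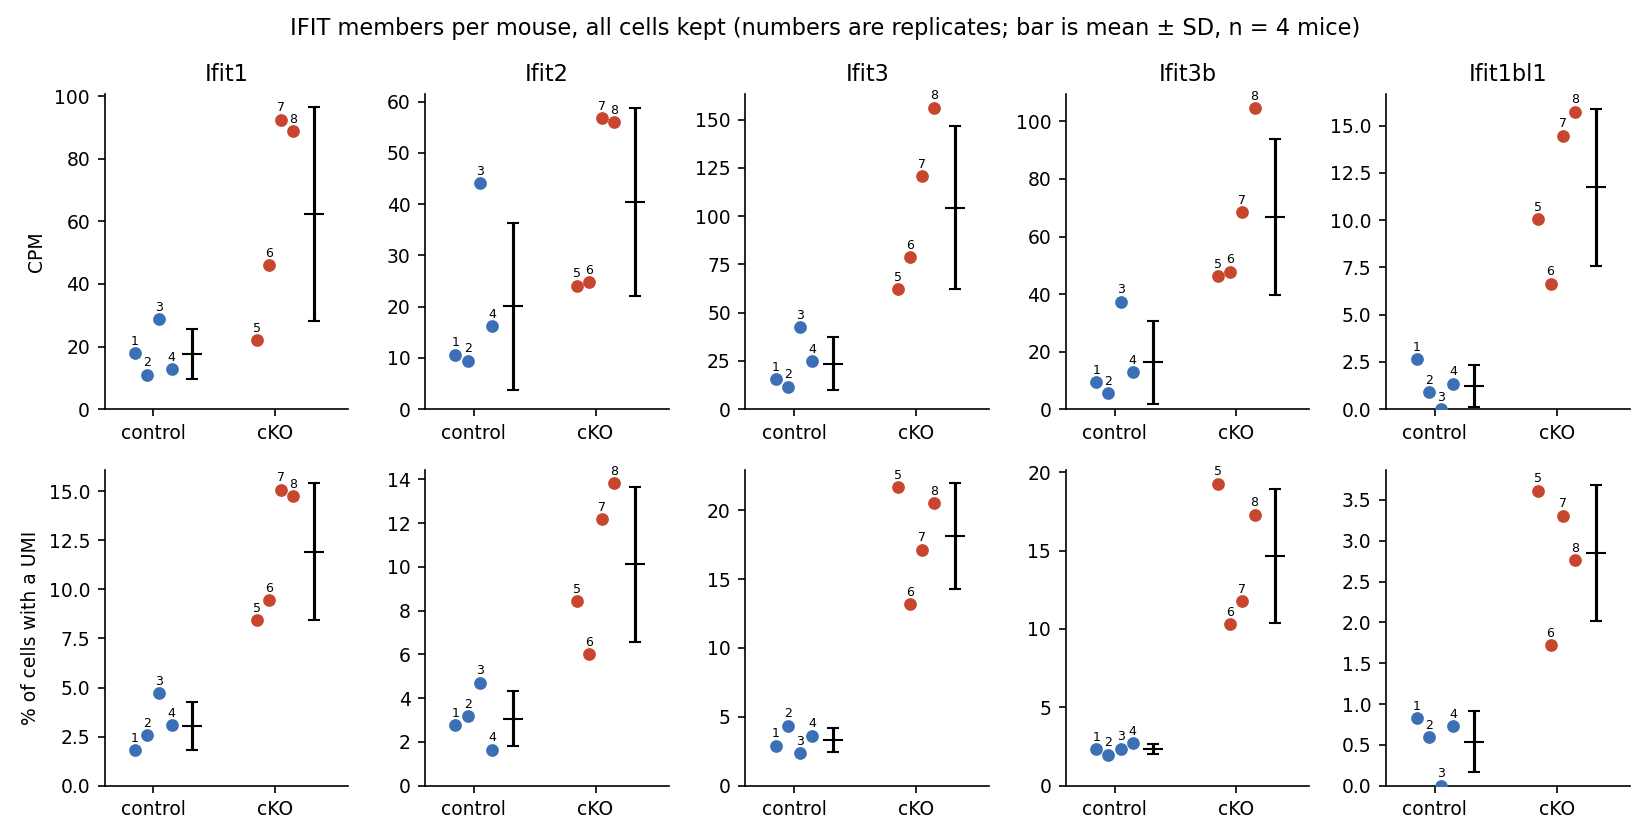
Level (upper row, CPM) and share of cells with a UMI (lower row, %) of each IFIT member in each mouse, with replicate numbers beside the points and the mean ± SD of 4 mice at the right of each group. CPM overlaps between groups for Ifit1 and Ifit2, while the share of cells overlaps for no member.

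Detection per cell separated the groups more evenly than CPM did. Cells with at least 1 family UMI made up 6.35, 8.32, 7.06 and 6.56% of control replicates 1 to 4 and 28.9, 21.2, 26.2 and 32.03% of cKO replicates 5 to 8. The means were 7.07 ± 0.881% and 27.1 ± 4.59% (SD, n = 4). Control replicate 3, the highest control mouse by CPM, was within the other controls by this measure. After every cell was thinned to 1000 UMIs (expected shares, shallower cells left out), the means were 2.72 ± 0.297% and 13.5 ± 2.47%. For single members the share was 3.31 ± 0.874% against 18.1 ± 3.82% for Ifit3, 2.35 ± 0.307% against 14.7 ± 4.30% for Ifit3b, 3.04 ± 1.23% against 11.9 ± 3.47% for Ifit1, 3.07 ± 1.27% against 10.1 ± 3.54% for Ifit2 and 0.538 ± 0.371% against 2.85 ± 0.832% for Ifit1bl1. No member overlapped between groups, and 2.33% of genes were higher in every cKO mouse by this measure. For Ifit1bl1 in control replicate 3 the count was 0 of 85 cells, which allows a share of up to 3.53% (3 counts of 85, counting error only).

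Free RNA can add UMIs to droplets of any cell, and no cell type of these samples lacks the family by nature, so no background share could be set. In control mice the lowest level was in lymphoid-like cells, where 4 of 93 cells (4.30%, median depth 3515 UMIs) had a single family UMI each. In cKO mice, 19.1% of 94 lymphoid-like cells (median depth 3339.5 UMIs) had one, 5 of them with at least 5 family UMIs.

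Within a mouse, few cells held most of the UMIs. In control mice 130 of 1863 cells were positive, 8 of them held 50% of all UMIs, and the median positive cell had 1 UMI in every control mouse. In cKO mice 364 of 1350 cells were positive, 32 of them held 50%, and the median was 2 or 3 UMIs per mouse. Cells with at least 5 family UMIs made up 1.46 ± 0.656% of a control and 7.08 ± 2.93% of a cKO mouse (SD, n = 4), and held 76.8% of the control and 78.4% of the cKO UMIs. High cells thus occurred in both groups and were more frequent in cKO mice.

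Control replicate 3 shows how far 1 cell can set a level. A single macrophage-like cell held 72 of its 90 family UMIs, and without that cell the mouse was at 31.1 CPM in place of 153 CPM. Without the highest cell of each mouse the family was at 38.9 ± 10.6 CPM in control and 246 ± 117 CPM in cKO mice, against 78.8 ± 50.8 and 286 ± 121 CPM with all cells (SD, n = 4). The mean difference of the family sum on the log2(CPM + 1) scale was 1.93 with all cells and 2.54 without these. The highest cKO cell, in the Saa3/Ccl24 cluster of replicate 8, held 141 UMIs, and that of replicate 5 was marked as a doublet.

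**Figure D2:**
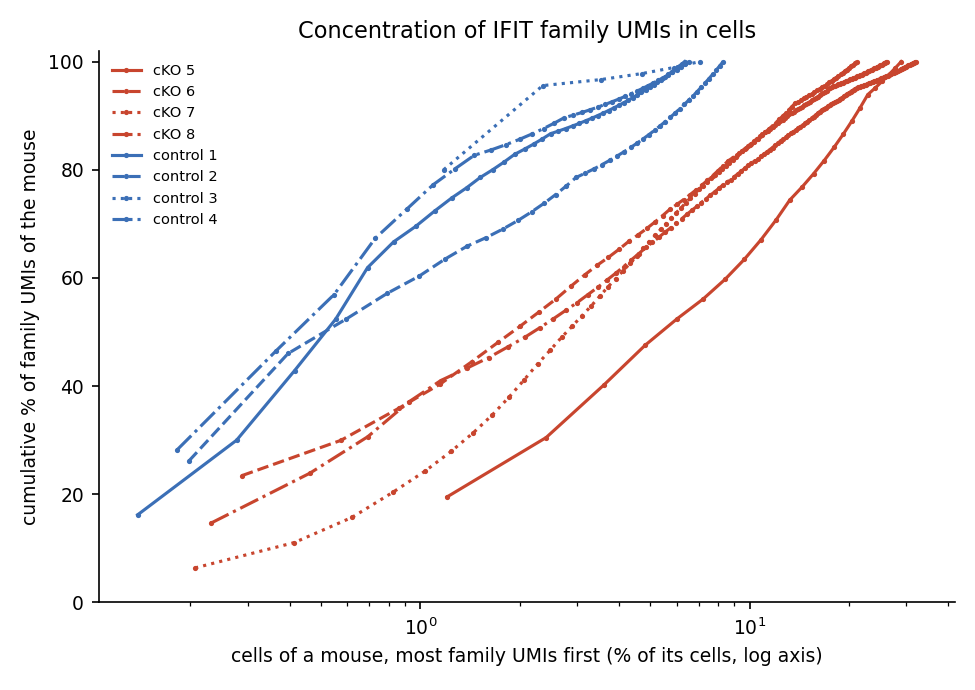
Cumulative share of a mouse's IFIT family UMIs (%) against the share of its cells, taken from the cell with the most UMIs down, on a log axis, with 1 line per mouse ending at its last positive cell. The control lines end between 6.35% and 8.32% of cells and the cKO lines between 21.2% and 32.03%.

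Positive cells often carried several members. Of 130 positive control cells, 84 (64.6%) had 1 member and 3 had all 5, and of 364 positive cKO cells, 145 (39.8%) had 1 and 16 had all 5. Of cells with an Ifit3b UMI, 84.1% of 44 in control and 92.4% of 184 in cKO mice also had Ifit3. Some words of read length in the last 500 bases of Ifit3 occur in Ifit3b, but not the reverse. Ifit1, which shares no word of read length with Ifit3 in the last 500 bases, was joined by Ifit3 in 44.7% of 47 control and 59.3% of 177 cKO cells, where 3.49% and 17.5% of all cells had Ifit3. Deeper cells hold more of any gene, so these shares are descriptions. The make-up of the family also differed: Ifit2 gave 24.1 ± 4.03% of family UMIs in control and 14.0 ± 1.69% in cKO mice, and Ifit3 gave 30.5 ± 4.22% and 36.9 ± 1.91% (SD, n = 4).

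Cells with a family UMI were also higher in other interferon-stimulated genes. The summed level of 49 listed genes outside the family was 13154 ± 2769 CPM in family-positive and 6061 ± 1615 CPM in negative cells of control mice, and 23361 ± 5638 and 14373 ± 2508 CPM in cKO mice (SD, n = 4). Within single mice this ratio averaged 2.19 ± 0.141 in the control group and 1.61 ± 0.103 in the cKO group, above 1 in all 8. Family-negative cKO cells averaged above family-positive control cells, with ranges that overlapped (12170 to 17726 against 10141 to 16730 CPM). Family-positive cells had the higher median depth in every mouse, from 5241 against 4995 UMIs in control replicate 4 to 11098 against 5237 in control replicate 3. Cells of all clusters were pooled here, so neither depth nor cell type is held fixed.

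The next question was which cells carried the family in control mice, which received corn oil alone. Per mouse and cluster, sums of at least 20 cells were used, and clusters with such sums in at least 2 control mice were ordered. The Dmkn/Slpi and stromal-like clusters had 1 such control sum each, at 93.5 and 42.2 CPM, and were left out of the order. The monocyte-like cluster was highest, with 603, 59.3 and 57.9 CPM in control replicates 1, 2 and 4, a mean of 240 ± 314 CPM (SD, n = 3). It was followed by the Cebpb/Dusp2 cluster at 54.2 ± 69.6 CPM (n = 4), dendritic cell-like cells at 52.9 ± 45.3 (n = 4), low-UMI macrophage-like cells at 44.0 ± 24.4 (n = 3), macrophage-like cells at 36.4 ± 21.8 (n = 3), the Saa3/Ccl24 cluster at 22.5 ± 8.11 (n = 3) and lymphoid-like cells at 10.4 ± 4.48 CPM (n = 3). Only the step from the first to the second exceeded the spread of its difference within mice, 1.29 ± 0.690 on the log2(CPM + 1) scale (SD, n = 3), while the other neighbours did not differ beyond their spread.

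Levels differed between clusters of control mice for 4 of 5 members, in a fit with the mouse as a term over 25 sums of 9 clusters (edgeR quasi-likelihood F test, Benjamini-Hochberg). Adjusted p was 2.93e-15 for Ifit3, 6.53e-09 for Ifit1, 3.84e-06 for Ifit2, 1.46e-05 for Ifit3b and 0.0586 for Ifit1bl1. Such a difference was common, since 48.4% of 11319 genes were called. The count fell to 2 of 5 without control replicate 1, whose monocyte-like cells held 109 of the 124 control UMIs of that cluster, and to 2 without the mouse term. In the same F test without the mouse term, adjusted p was 0.00354 for Ifit3 and 0.0326 for Ifit1. It was 0.0501 for Ifit2, 0.0506 for Ifit3b and 0.0734 for Ifit1bl1. The size of these p-values thus depends on the model.

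In cKO mice, low-UMI macrophage-like cells were highest at 610 ± 523 CPM, macrophage-like cells at 453 ± 96.1, the Cebpb/Dusp2 cluster at 426 ± 510 (n = 4), the Saa3/Ccl24 cluster at 357 ± 220, the Dmkn/Slpi cluster at 345 ± 136, lymphoid-like cells at 328 ± 304, monocyte-like cells at 207 ± 67.0 and dendritic cell-like cells at 149 ± 56.4 CPM (SD, n = 3 unless given). No pair of neighbours in this order differed beyond the spread of its difference within mice. Stromal-like cells had no cKO sum of at least 20 cells and were left out of the order.

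Macrophage-like cells, the tissue-resident cells marked by C1qa, C1qb, C1qc, Apoe and Pf4, had among the widest separations. The family was at 35.5, 58.6 and 14.99 CPM in control replicates 1, 2 and 4 and at 559, 427 and 372 CPM in cKO replicates 6, 7 and 8. The lowest cKO mouse was above the highest control mouse. The small libraries had only 14 and 13 such cells and were left out of these sums, with 685 CPM in control replicate 3 (72 of 73 UMIs in the 1 cell above) and 286 CPM in cKO replicate 5. Fitted log2 fold changes were 3.80 (SE 0.67) for Ifit3, 3.85 (SE 0.68) for Ifit3b, 2.92 (SE 0.70) for Ifit1 and 2.49 (SE 0.65) for Ifit2, which were called where 0.598% of genes were called higher. With sums of at least 10 cells, which let the small libraries in, they were 2.54 for Ifit3, 2.30 for Ifit3b, 2.08 for Ifit1 and 1.70 for Ifit2, and of these Ifit3 alone was called. Ifit1 and Ifit2 were also not called by DESeq2 (3.08 and 2.63), nor without cKO replicate 6, 7 or 8, and Ifit1 was not without control replicate 2 nor Ifit2 without control replicate 1. Ifit1bl1 had 4 control and 5 cKO UMIs, a log2 fold change of 1.32 (SE 1.26), and was not called. Cells with a family UMI made up 9.20 ± 1.28% in control and 41.6 ± 8.74% in cKO mice, and 2.12 ± 0.969% and 20.2 ± 3.87% after thinning (SD, n = 3).

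In the Saa3/Ccl24 cluster, led by Saa3, Ccl24, Spp1 and Il1rn, the family was at 28.2, 13.2 and 26.1 CPM in control replicates 1, 2 and 4 and at 133, 364 and 574 CPM in cKO replicates 6, 7 and 8. The groups were again apart, and replicate 8 owed 141 of its 291 UMIs to a single cell. Log2 fold changes were 3.92 (SE 0.72) for Ifit1, 3.84 (SE 0.79) for Ifit3b, 3.65 (SE 0.77) for Ifit3 and 3.54 (SE 0.78) for Ifit2. Ifit1bl1 had no control and 31 cKO UMIs, a bound of 10.8-fold against a floor of 3 UMIs over the control group, which leaves out the counting error of the cKO UMIs. That bound was 5.56 without control replicate 4, 7.06 without control replicate 1 and 6.52 without cKO replicate 8. All 5 members were called, where 0.898% of genes were, but Ifit2 was not without cKO replicate 7, and neither Ifit2 nor Ifit3 was without replicate 8.

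In dendritic cell-like cells, marked by Flt3, Xcr1, Cd209a and Itgae, the family was at 7.73, 31.8, 59.0 and 113 CPM in control replicates 1 to 4 and at 89.2, 157 and 201 CPM in cKO replicates 6, 7 and 8. The highest control mouse lay among the cKO mice, with 57 of its 126 UMIs in 1 cell. By share of positive cells the groups did not overlap, at 6.37 ± 2.23% (n = 4) against 27.3 ± 3.07% (n = 3). Log2 fold changes were 2.55 (SE 0.71) for Ifit3b, 1.97 (SE 0.69) for Ifit3, 1.74 (SE 1.12) for Ifit1bl1, 1.08 (SE 0.80) for Ifit1 and 0.27 (SE 0.69) for Ifit2. None was called, where 0.246% of genes were, and leaving out single mice moved Ifit2 from -0.14 to 1.10.

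Monocyte-like cells, marked by Ly6c2, Chil3 and F13a1, were the only one of the 7 clusters compared whose mean CPM was lower in cKO mice, although its mean on the log2(CPM + 1) scale was not. The family was at 603, 59.3 and 57.9 CPM in control replicates 1, 2 and 4 and at 198, 145 and 278 CPM in cKO replicates 6, 7 and 8. Control replicate 1 was above every cKO mouse and the other controls were below every one. Log2 fold changes were 0.01 (SE 0.69) for Ifit3, 0.22 (SE 0.72) for Ifit3b, -0.66 (SE 0.75) for Ifit2, -1.26 (SE 0.79) for Ifit1 and -1.37 (SE 1.16) for Ifit1bl1, none called where 0.114% of genes were. Without control replicate 1 they were 1.68 for Ifit1 and 1.33 for Ifit2, so that this library sets the direction. Positive cells made up 17.0 ± 6.64% in control and 29.6 ± 5.74% in cKO mice without overlap, but 8.35 ± 5.55% and 13.2 ± 3.99% with overlap after thinning (SD, n = 3).

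Sparse clusters had few control UMIs, so pooled ratios with exact 95% intervals for counting error are given. In the Cebpb/Dusp2 cluster, with 0 to 156 CPM per control and 86.4 to 1172 CPM per cKO mouse, the ratio was 17.7 (5.71 to 88.7) for Ifit3 on 3 control UMIs and 14.1 (4.47 to 71.2) for Ifit2. Most of these cKO UMIs came from replicate 8, with 30 of 49 for Ifit3 (22 in 1 cell) and 24 of 39 for Ifit2 (16 in 1 cell). Without it the ratios were 8.85 and 6.99, and without control replicate 1 that of Ifit2 was 29.7. For Ifit1, 18 of the cluster's 21 control UMIs were in 1 cell of replicate 1. Its fitted log2 fold change was 1.35 (SE 0.72), and ranged from 0.098 to 3.58 when single mice were left out. In low-UMI macrophage-like cells the pooled ratio was 16.7 (4.31 to 143) for Ifit3 and 15.4 (3.94 to 132) for Ifit1. The ratio of Ifit3 was 9.70 without control replicate 1 and 27.4 without control replicate 4, and that of Ifit1 was 9.33 without cKO replicate 7, while its 2 control UMIs were both from replicate 1. In lymphoid-like cells Ifit3 had no control and 59 cKO UMIs, a bound of 19.1-fold against a floor of 3 control UMIs. That bound leaves out the counting error of the cKO UMIs. Of these 59 UMIs, 40 were from cKO replicate 7 (31 in 1 cell), and the bound was 8.69 without it and 12.3 without control replicate 4. There the ratio was 21.4 (3.46 to 884) for Ifit1 and 35.0 (5.90 to 1422) for Ifit3b, each on 1 control UMI. For Ifit2 it was 1.95 (0.279 to 21.5) on 2 control and 4 cKO UMIs. No member was called in these 3 clusters, where 0.176%, 0.0880% and 0.0528% of genes were. The Dmkn/Slpi and stromal-like clusters had fewer than 2 control or cKO mice with 20 cells and were not compared. Their pooled levels were 57.0 and 101 CPM in control and 383 and 745 CPM in cKO cells. The Dmkn/Slpi control level rests on 8 UMIs in 2 of 54 cells (6 in 1 cell). The stromal-like cKO level rests on 64 UMIs in 9 of 16 cells, and 8 of these 16 cells were from replicate 8.

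Over the 7 clusters compared, 9 of 35 pairs of member and cluster were called, all in the macrophage-like and Saa3/Ccl24 clusters. Of all genes, 0.598% and 0.898% were called higher in these, and the lowest share was 0.0528% in lymphoid-like cells. Nothing is read from this count. Other settings gave from 4 (cells divided into 12 clusters) to 20 (no filter on low counts), and 6 were called without cKO replicate 7. The share of all genes called is not given for those settings, so the changes in count are not read either.

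**Figure D3:**
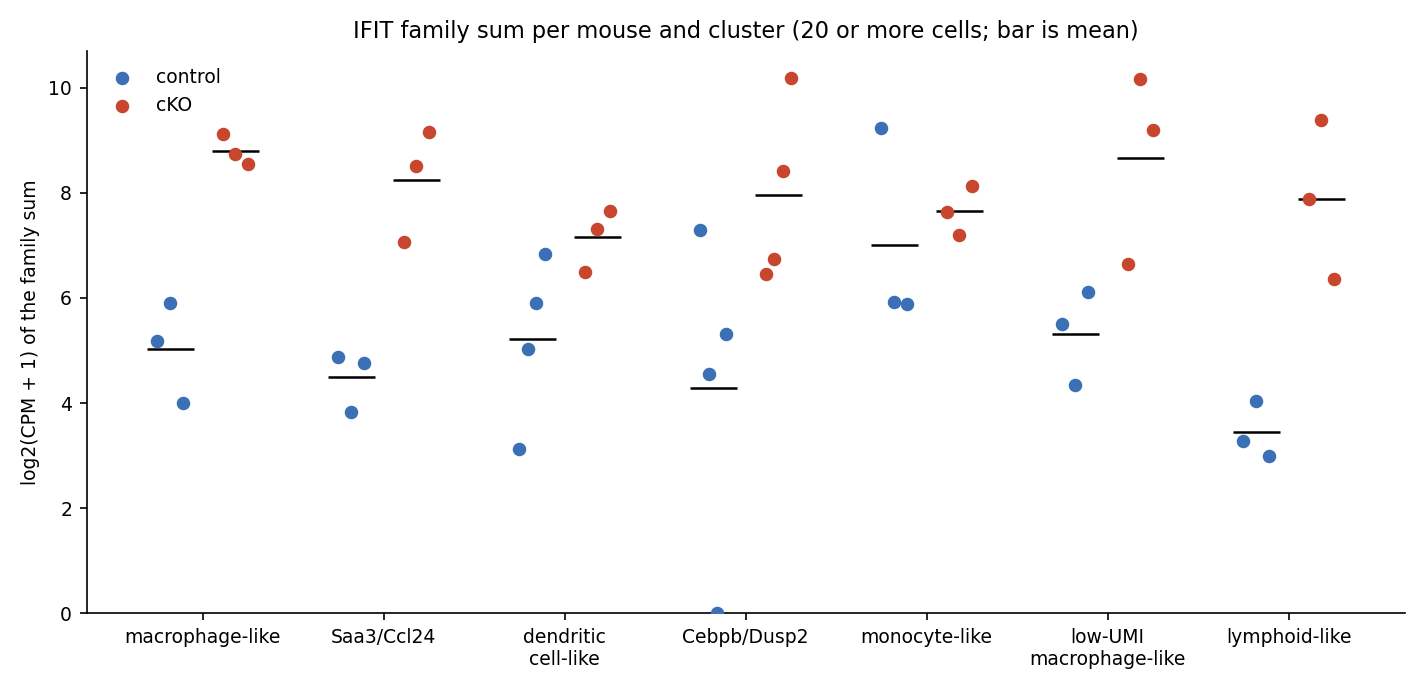
IFIT family sum on the log2(CPM + 1) scale in each mouse and cluster with at least 20 cells, control beside cKO, with a bar at the mean. The cKO mice lie above the control mice in the macrophage-like, Saa3/Ccl24, low-UMI macrophage-like and lymphoid-like clusters, and 1 control mouse at 603 CPM tops the monocyte-like cluster.

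**Figure D4:**
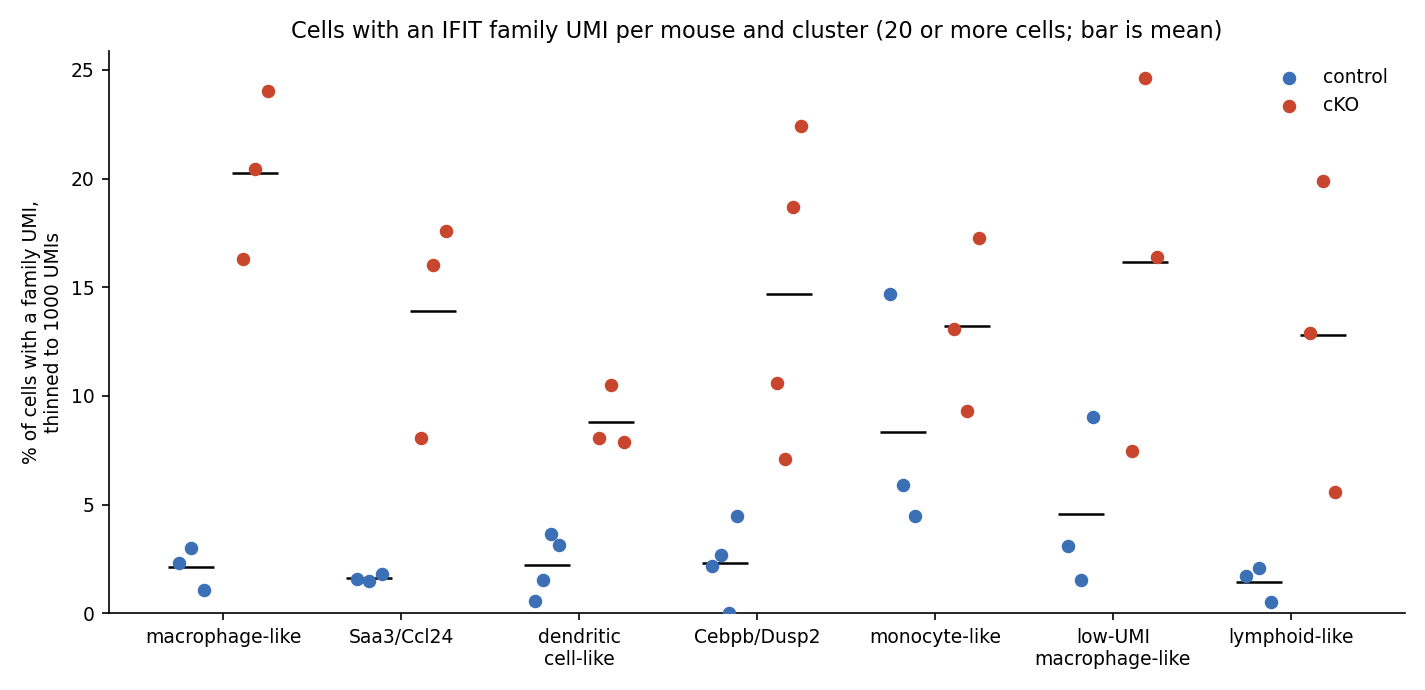
Share of cells with an IFIT family UMI after thinning to 1000 UMIs per cell (%), in each mouse and cluster with at least 20 cells, with a bar at the mean. The groups overlap in the monocyte-like and low-UMI macrophage-like clusters and in no other of the 7.

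The change between conditions was also compared across clusters, in 1 fit over 45 sums of 7 clusters with terms for mouse, cluster and cluster by condition. All 5 members were called in it (edgeR quasi-likelihood F test, Benjamini-Hochberg), where 1.53% of genes were. Without the mouse term the count was 0 of 5, with 5 of 5 at an unadjusted p under 0.05 and only 14 calls among all genes, and it was 3 without control replicate 1. This fit uses the contrast on which the family was proposed, so the counts are a description and a difference between clusters is not read from them.

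The difference over all cells lay mostly within clusters. Of the mean difference of 207 CPM between conditions, 189 CPM (91.2%) came from levels within clusters. The other 18.3 CPM came from the clusters' shares of UMIs. This split used all cells of every mouse, without the minimum number of cells set for the comparisons within clusters. The Dmkn/Slpi and stromal-like clusters, which were not compared above, are therefore included and gave 21.6 and 15.3 CPM through their levels. The control level of macrophage-like cells in the split was 165 CPM, against a mean of 36.4 CPM over control sums that met the minimum. The Saa3/Ccl24 cluster gave 56.5 CPM and macrophage-like cells 44.0 CPM through their levels. Without control replicate 3, which holds the cell with 72 UMIs, these were 58.3 and 70.9 CPM, so their order turned, and the macrophage-like part was 29.3 CPM without control replicate 1. Monocyte-like cells, which held 3.76% of UMIs in control and 15.9% in cKO mice, gave -2.61 CPM through level and 25.7 CPM through share. Without control replicate 1 these were 14.6 and 15.3 CPM. Dendritic cell-like and macrophage-like cells took smaller shares of UMIs in cKO mice and gave -21.1 and -24.4 CPM that way. The split has no test, and the part within clusters ranged from 88.6% to 95.3% when single mice were left out.

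**Figure D5:**
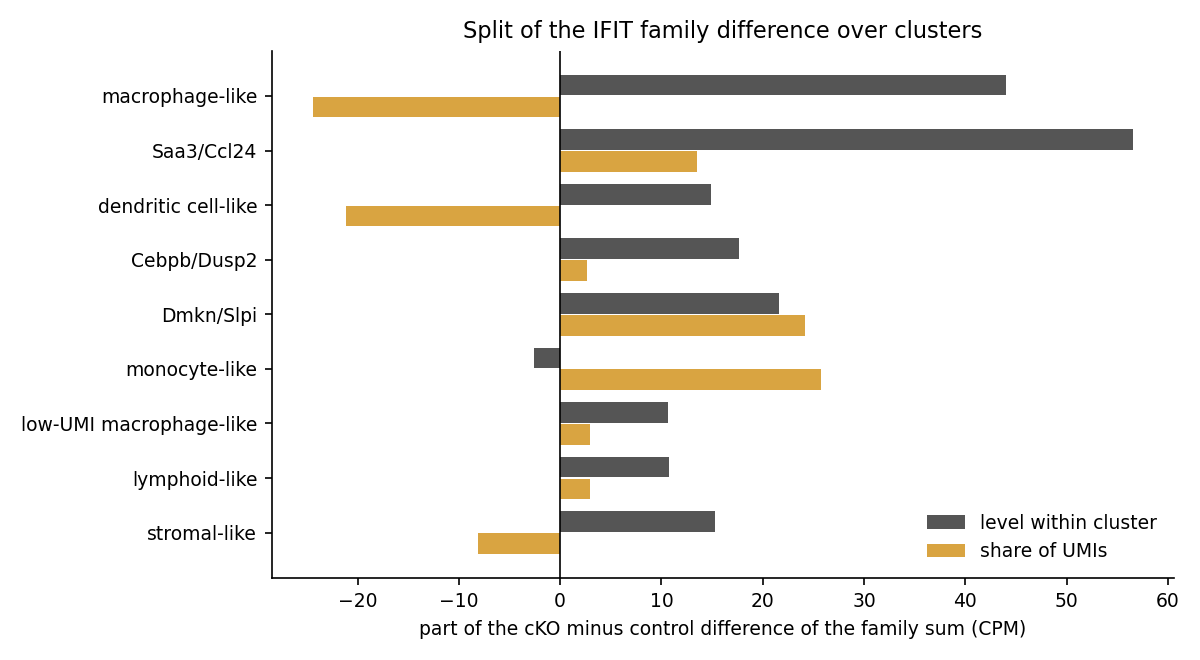
Parts of the cKO minus control difference of the IFIT family sum (CPM) per cluster, from its level within the cluster (grey) and from the cluster's share of UMIs (yellow). All clusters and all cells of every mouse are included. Level parts are positive in every cluster but the monocyte-like one, at -2.61 CPM, which is 14.6 CPM without control replicate 1.

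EYFP, which reports the Cx3cr1 allele that carries CreER, gave a further view within mice. In cKO mice 50.9% of 108 cells with an EYFP UMI and 24.9% of 1242 cells without one had a family UMI, at median depths of 6900.5 and 4655 UMIs. After thinning these were 22.7% and 13.03%, higher with EYFP in 4 of 4 cKO mice. By CPM the levels were 317 and 328, higher with EYFP in 2 of 4 mice, and among macrophage-like cKO cells the thinned share was higher with EYFP in 2 of 4. Cells without an EYFP UMI thus carried the family in cKO mice as well. Control mice had a difference in the same direction, at 11.5% of 373 cells with and 5.84% of 1490 cells without an EYFP UMI. After thinning these control shares were 3.43% and 2.53%, higher with EYFP in 3 of 4 control mice. Among macrophage-like control cells the thinned share was higher with EYFP in 4 of 4. A missing EYFP UMI at this depth does not show that the allele is silent.

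Other genes of the interferon pathway are given by role, from lists written with earlier results of these data known. Of 12 interferon ligand genes, 3 were rows of the table and none had enough UMIs to be tested, with 10 UMIs for Ifnb1, the early type I interferon. Of 5 receptor genes tested, none was called. Ifnar1 and Ifnar2, the chains of the type I receptor, had log2 fold changes of 0.01 (SE 0.18) and 0.33 (SE 0.14), and the extremes were Ifngr1 at -0.39 (SE 0.16) and Il10rb at 0.62 (SE 0.17).

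In sums over all cells, 341 of 11387 genes (2.99%) were called higher and 169 lower, and nothing is read from the counts below. Of 11 signal transducers, 4 were called higher and 1 lower, among them the following. Irf7, the factor that amplifies type I interferon, ranged from 62.1 to 160 CPM in control and from 574 to 910 CPM in cKO mice, a log2 fold change of 2.97 (SE 0.29). Stat2 and Irf9, which belong to ISGF3, had 0.85 (SE 0.19) and 0.67 (SE 0.16). Irf8, a factor of dendritic cells and monocytes, was lower over all cells, at -0.89 (SE 0.18), but no transducer was called lower within any of the 7 clusters compared. Dendritic cell-like cells held 40.5% of UMIs in control and 14.2% in cKO mice. The part of cell composition in the Irf8 value was not tested. Of 11 nucleic acid sensors, 3 were called higher, Ddx58 (RIG-I) at 1.80 (SE 0.25), Dhx58 at 1.32 (SE 0.21) and Ifih1 (MDA5) at 1.27 (SE 0.29), and Tlr3 was at -0.60 (SE 0.38). Of 6 negative regulators only Usp18, which blocks signaling at the type I receptor, was called, at 1.83 (SE 0.33), and Pias1 was lowest at -0.16 (SE 0.20). Within single clusters, at most 1 transducer, 1 sensor and 1 negative regulator were called higher.

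Of 48 interferon-stimulated genes tested outside the family, 41 were called higher, where 2.99% of all genes were, and none lower, with a median log2 fold change of 1.30 where that of all genes was -0.03. Ifi44 had 4.34 (SE 0.39), above every IFIT member, and Ifitm1 was lowest at -0.25 (SE 0.49). Within clusters, beside the share of all genes called higher there, 29 of 48 were called higher in macrophage-like cells (0.598%), 20 in the Saa3/Ccl24 cluster (0.898%), 11 in dendritic cell-like cells (0.246%), 7 in the Cebpb/Dusp2 cluster (0.176%), 3 in low-UMI macrophage-like cells (0.0880%), 3 in lymphoid-like cells (0.0528%) and 1 in monocyte-like cells (0.114%). These counts are from the same contrast, and nothing is read from them. None of 16 partners of IFIT proteins, the eIF3 subunits and cap methyltransferases, was called, with a median of -0.01 and a range from -0.55 (SE 0.58) for Cmtr2 to 0.98 (SE 0.44) for Cmtr1.

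The genes whose level was most like the family sum were sought by Pearson correlation of log2(CPM + 1). Over the 8 mice these were Phf11c (r = 0.972), Phf11a (0.971), Mndal (0.971), Phf11b (0.970) and Phf11d (0.970). Over 50 sums of mouse and cluster they were Rsad2 (0.755), Phf11c (0.754), Usp18 (0.713), Xaf1 (0.694) and Ifi213 (0.667). The points share condition, library and depth, and those of 1 mouse share their source, so r is a description. The genes beside the cluster on chromosome 19 were Lipa on the left, with 866 UMIs and a log2 fold change of -0.22 (SE 0.27), not called, and Slc16a12 on the right, with 3 UMIs and too few to be tested.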

How the data were processed

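Single-cell RNA of 8 mice was captured with a 10x Genomics 3′ v2 kit. The authors aligned reads of 58 bases to mm10 with Cell Ranger and STAR 2.5.3a, added the EYFP sequence, and deposited 1 merged table of UMI counts per gene and cell without normalization. Each column of cells was joined to its mouse through the well in its name, and 0 columns were left without a sample. Sums over all cells come from separate mice, while several cluster sums come from the same mouse. Calls within clusters came from a joint fit over all clusters without a mouse term. Sums of the same mouse were thus treated there as independent. The members and all gene lists were chosen with earlier results of these data known.

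Cells were kept above 2.8 on the log10 scale of UMIs and 2.6 on that of genes, with at most 5% mitochondrial UMIs, as the methods of the study state, and without a UMI of 4 hemoglobin genes. Clusters came from scran 1.30.0 size factors, 7 principal components and Ward linkage into 9 clusters, leaving out 329 genes (the family, the pathway and marker lists, Slc3a2, EYFP and genes that the study lists as changed). A cluster was named by its markers among its 10 leading genes. UMI counts of a mouse were summed over all its cells, or over each cluster holding 20 or more of them, and tested with edgeR 4.0.16 (TMM, quasi-likelihood test, at least 1 CPM in 3 sums and 20 cells with a UMI, Benjamini-Hochberg over all genes, called at 0.05) on R 4.3.3. Alternatives were DESeq2 1.42.0, edgeR's likelihood ratio test, limma 3.58.1, other filters, clusterings and doublet calls (Scrublet in scanpy 1.11.5), and each mouse left out. The fitting code was tested on simulated data. Depth was 497531 to 3762314 UMIs per mouse, and intervals and floors (3 UMIs) cover counting error only. Named genes were the members, their neighbours on the chromosome, the 5 most alike genes by each measure, and the extremes and main roles of each pathway list. Promoters were taken from RefSeq (GRCm38.p6) and gene positions from GENCODE vM21. The values of 1 gene of the pathway lists are not reported here.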

Additional observations from a re-analysis of the deposited data

Results flagged for a closer look

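In the fit with terms for mouse, cluster and cluster by condition, the change between conditions was called as different between clusters for the 5 members, which is why it is listed here (edgeR quasi-likelihood F test, Benjamini-Hochberg adjusted p of 1.29e-06 for Ifit1, 4.20e-06 for Ifit3, 2.22e-05 for Ifit2, 0.00524 for Ifit3b and 0.0296 for Ifit1bl1). The members were chosen with this contrast known, and the count was 0 of 5 without the mouse term and 3 without control replicate 1, so these values do not show that the change differs between clusters. The macrophage-like family sum averaged 36.4 CPM in control and 453 CPM in cKO mice, while that of monocyte-like cells averaged 240 and 207 CPM, the former through 1 control mouse.

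Barcodes left out by the filters on cells also held family UMIs, at 246, 155, 274 and 383 CPM in cKO replicates 5 to 8, above the 7.50, 39.4, 0 and 4.96 CPM of control replicates 1 to 4. They had medians of 217.5 to 389 UMIs per barcode, and 48868 to 266786 UMIs per mouse in all. In cKO mice 3.69 to 8.04% of them had a family UMI, against 0 to 1.55% in control mice. How far RNA outside intact cells entered the cells kept was not tested.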

How the results depend on the processing

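Over all cells, members called ranged from 3 to 5 when single mice were left out, and the family difference from 1.66 to 2.31 on the log2(CPM + 1) scale. Calls within clusters (9) were 20 with no low-count filter, 17 with each cluster fitted alone, 4 with 12 clusters, 5 with graph clustering and 6 to 11 without single mice. Calls for a change that differs between clusters (5) were 0 without the mouse term (5 at an unadjusted p under 0.05 in the edgeR quasi-likelihood test), 3 with counts capped at 3 UMIs per gene and cell (an alternative chosen after seeing the data), 3 with all genes in the clustering and 3 to 5 without single mice, 3 without control replicate 1. Calls between clusters of control mice (4) were 2 without the mouse term and 2 to 4 without single mice, 2 without control replicate 1. The share of all genes called is not given for most of these settings, so the changes in count are not read as results about the members. The cause of these changes was not tested. The difference in thinned detection (10.8 percentage points) was 20.0 without thinning, 14.8 at 2000 UMIs and 9.90 to 11.9 without single mice, and the share within clusters was 88.6 to 95.3%. Directions that turned without single mice, as lowest and highest log2 fold change, were those of monocyte-like cells for Ifit1 (-1.76 to 1.68), Ifit2 (-1.08 to 1.33), Ifit3 (-0.45 to 1.72, and -0.026 with that cluster fitted alone), Ifit3b (-0.28 to 3.80) and Ifit1bl1 (-1.80 to 0.36), of dendritic cell-like cells for Ifit2 (-0.14 to 1.10) and of macrophage-like cells for Ifit1bl1 (-0.12 to 2.07). None of these had been called. No paired analysis was possible because the groups share no replicate numbers. Few UMIs, from 4 per group in some clusters, limit these folds.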
